A study of Mus musculus with 40 samples.

Results

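The lowest dose of broccoli was compared with the same Western-type diet without it. The comparison used 20 of the 40 libraries of the study, namely the 10 labelled 0.5_BP and the 10 labelled 0_BP, chosen by their treatment label. All the mice were C57BL/6 and had an age of 3 weeks at the start. They were then fed for 6 weeks on the Total Western Diet, which models human Western intakes in rodents. Over the next 3 weeks one group stayed on the diet with 0% broccoli powder and the other ate it with 0.5% broccoli powder. Bacterial RNA was then counted in the cecal contents, on the genomes of 6 bacteria that keep here the names of the deposited tables: F. rodentium, L.bacterium335, D. muris, X. muris, Acetatifactor and Alistipes. The labels do not say whether each library came from 1 mouse, so the tests measure the spread between libraries.

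Bacteria of the cecum live on what the host does not absorb. Broccoli brings plant cell wall, which holds pectin, cellulose and hemicelluloses, and it also brings glucosinolates and other sulfur compounds. A bacterium that meets a new sugar usually turns on the transporter for it, an ABC transporter or a phosphotransferase system, together with the enzymes that cut and ferment it. Heat-shock chaperones, thioredoxins and peroxidases keep proteins folded and reduced, and their genes are the usual sign of how much stress a cell is under.

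Totals over the 6 genomes ranged from 306275 to 1902264 counts per library at 0% and from 332195 to 5107249 at 0.5%. F. rodentium held the most, with a median of 511300 counts per library at 0% and 780300 at 0.5%. A genome was analysed in a library only with at least 10000 counts there, which kept all 20 libraries for F. rodentium, L.bacterium335 and Acetatifactor. It kept 9 and 9 for D. muris, 7 and 7 for X. muris, and 0 for Alistipes. Of the 10 libraries at 0.5%, 4 carry the numbers 76 to 79 in their titles, while the 0% libraries carry 8 to 17 and the other 0.5% libraries 18 to 27. The labels do not call this numbering a batch, and no 0% library has a number from 76 to 79, so each count of genes below was also computed without these 4 libraries and without those numbered 80 and 81, which belong to the higher doses of the shared fit.

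The share of F. rodentium among the counts of the 6 genomes showed no detectable change at this dose. It was 72.84% ± 17.99 (SD, n = 10) at 0%, with a range of 38.6 to 93.0%. At 0.5% it was 76.1% ± 13.2 (SD, n = 10), with a range of 56.4 to 95.6%. The groups overlapped over most of their range, and the typical difference of 1.53 percentage points had a 95% interval from -11.8 to 16.96 (permutation test, adjusted p = 0.712 over 6 genomes). The 0.5% libraries numbered 18 to 27 averaged 74.6% ± 12.6 (SD, n = 6) and those numbered 76 to 79 averaged 78.3% ± 15.8 (SD, n = 4). None of the other 5 shares passed the test, the smallest adjusted p being 0.521, for Acetatifactor, which averaged 6.436% at 0% and 4.072% at 0.5%, and for Alistipes. In such bulk samples, fewer cells of a bacterium and less RNA per cell cannot be told apart.

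What did differ at 0.5% was the breadth of genes seen in several of the bacteria. Reduced to 10000 counts, the L.bacterium335 table showed 371.8 ± 51.37 features (SD, n = 10) at 0% and 1131 ± 215.5 at 0.5%. The lowest 0.5% library, at 843.9 features, was above the highest 0% library, at 473.1, and the permutation p of 1e-05 was the smallest its resamples can give (adjusted p = 5e-05 over 5 genomes). D. muris went from 1256 ± 74.65 features (SD, n = 9) to 1380 ± 97.61 (exact permutation test, adjusted p = 0.0209). Acetatifactor went from 631.3 ± 221.8 to 1054 ± 451.7 features (permutation test, adjusted p = 0.0284), although 3 of its 10 libraries at 0.5% stayed below the 0% mean, and the difference did not pass without the libraries numbered 76 to 79 (adjusted p = 0.0662) or without 0.5% replicate 8. F. rodentium showed 1123 ± 54.01 and 1152 ± 81.32 features, a typical difference of 18.2 with a 95% interval from -47.6 to 103. In X. muris the interval was wider, from -234 to 656 features.

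The counts were also less concentrated in the same 3 genomes. Both measures come from the same counts, and fewer features are seen where a few hold most counts. The 2 results are therefore not independent. The 5 most counted features took 74.86% ± 7.156 (SD, n = 10) of the L.bacterium335 counts at 0% and 49.68% ± 10.34 at 0.5% (permutation test, adjusted p = 0.00025). In D. muris they took 11.56% ± 2.799 (SD, n = 9) and 6.752% ± 0.5371 (exact permutation test, adjusted p = 0.000514). In Acetatifactor they took 55.48% and 42.82% (permutation test, adjusted p = 0.0106). F. rodentium went the other way, from 15.97% ± 1.571 to 18.16% ± 2.458 (permutation test, adjusted p = 0.0372), but this did not pass without the libraries numbered 76 to 79 (adjusted p = 0.136) and was lost on leaving out any 1 of 12 of the 20 libraries.

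**Figure D1:**
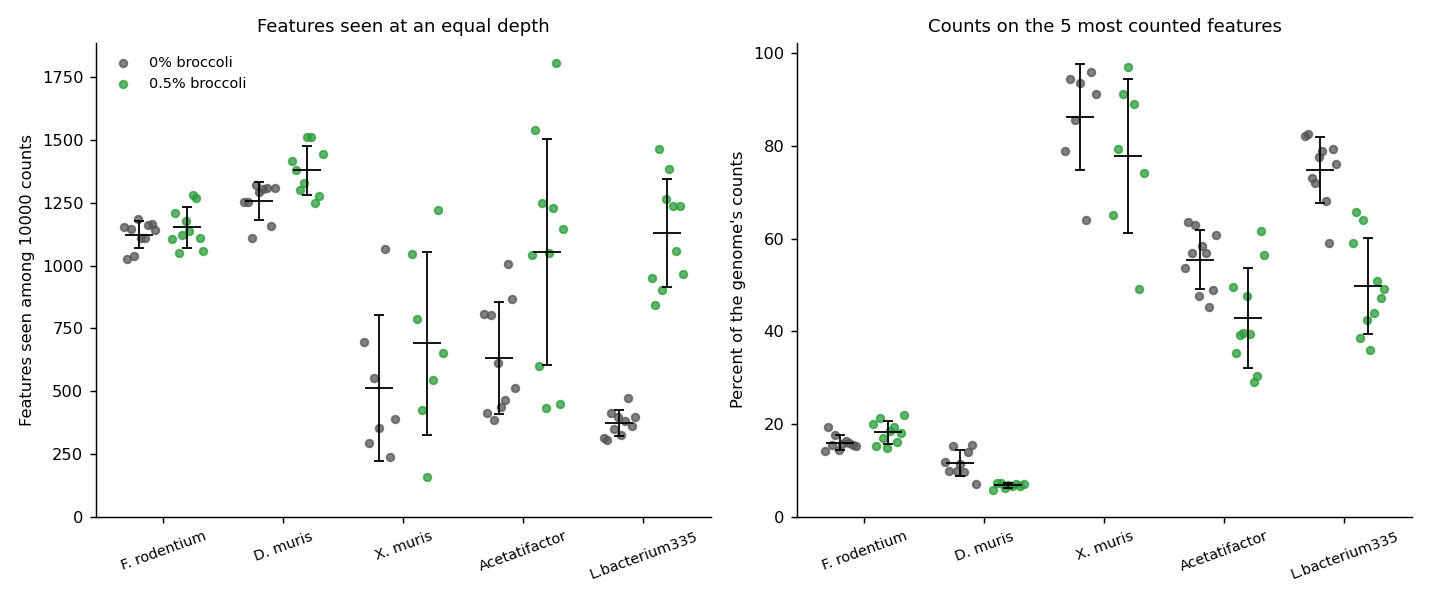
The left panel plots the number of features seen among 10000 counts and the right panel the percent of a genome's counts on its 5 most counted features. Points are libraries at 0% and 0.5% broccoli, with the mean ± SD. The 10 libraries of L.bacterium335 at 0.5% all lie above the 10 at 0% in the left panel.

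F. rodentium supplied most of the RNA and its genes were measured with the greatest depth. At 0.5% broccoli 3 mgl genes of galactose uptake and 4 of 15 tested genes of beta-glucoside use rose, while 4 of 13 chaperone and protease genes, 4 of 8 thiol and peroxide genes and the bile salt hydrolase gene cbh_1 fell. Of 1689 tested features, 60 rose and 83 fell (edgeR's quasi-likelihood test, Benjamini-Hochberg adjusted p under 0.05), which is 8.47% of those tested, 3.55% higher and 4.91% lower. The median log2 fold change over all tested features was 0.02. Groups that did not overlap were rarer, with 9 features (0.533%) higher in every 0.5% library than in any 0% library and 7 (0.414%) lower. Without the libraries numbered 76 to 81, which leaves 6 libraries at 0.5%, 40 features passed, of which 38 were among the 143. Leaving out 0% replicate 2 gave 94 and 0% replicate 6 gave 91, and leaving out 0.5% replicates 2, 6 and 8 gave 91, 90 and 92.

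Among the gene lists of sugar use, the calls with the highest fold changes were the mgl genes, which encode a galactose and glucose ABC transporter. mglB, its sugar-binding protein, ranged from 0 to 65.4 CPM (counts scaled to a common total of the genome, after TMM), with a median of 26.97, at 0%. At 0.5% it ranged from 247 to 1799.7 CPM with a median of 694. Every 0.5% library was above every 0% library, and mglB rose by 4.59 ± 0.38 on the log2 scale (SE; edgeR, adjusted p = 2.87e-12). The permease gene mglC had a median of 12.8 CPM at 0% and 123 at 0.5%, and it rose by 3.31 ± 0.42 (edgeR, adjusted p = 2.52e-07). The ATPase gene mglA went from a median of 11.6 to 92.3 CPM and rose by 2.85 ± 0.48 (edgeR, adjusted p = 9.97e-05). These were 3 of the 7 tested genes of sugar ABC uptake, and none of the other 4 passed. The count of 3 was the same without the libraries numbered 76 to 81 and on leaving out each library in turn.

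The raw counts of mglB of F. rodentium, not scaled for depth, had a median per library of 15.5 on the plain diet, 594.5 at 0.5%, and 15.5 and 13 at 1% and 2.5%. They ranged from 100 to 1483 at 0.5%, up to 84 at 1% and up to 152 at 2.5%, so the 0.5% and 2.5% libraries overlapped. The mgl genes of L.bacterium335 summed to a median of 1.0 count at 0% and 1350 at 0.5%, and to 3942 and 19150 at 1% and 2.5%. Totals of both genomes at 1% and 2.5% are not given here, so relative levels at those doses cannot be read from these counts. The sources used here do not say how reads shared by the 2 genomes were counted, and whether such reads enter the F. rodentium values was not tested.

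Beta-glucoside use rose in part. These genes take up and split the short glucans that cellulose and other beta-linked plant sugars give. Of 15 tested members, 4 rose and 1 fell, with a median log2 fold change of 0.41. licC, the membrane component of a phosphotransferase system for such sugars, ranged from 396 to 1593 CPM with a median of 644 at 0%. At 0.5% it ranged from 904 to 2989 CPM with a median of 2235, and only 1 of the 0% libraries reached into that range. It rose by 1.57 ± 0.29 (SE; edgeR, adjusted p = 0.000402). bglC, a phospho-beta-glucosidase, went from a median of 219 to 544 CPM, an increase of 1.04 ± 0.23, and licR_3, an activator of such operons, from 1381 to 3315 CPM, an increase of 1.00 ± 0.26. The second phospho-beta-glucosidase bglH_1 rose by 0.80 ± 0.24. The member that fell, cbpA, by 0.80 ± 0.25, carries a symbol that in other bacteria denotes a DnaJ-like co-chaperone rather than a sugar enzyme. Without the libraries numbered 76 to 81 there were 2 that rose and 0 that fell, and without 0.5% replicate 4 there were 3 calls in all.

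Other sugar genes moved one at a time. In the phosphotransferase list 1 of 12 members passed. This was ptsI, the enzyme that feeds phosphate into all such systems, which rose by 0.45 ± 0.14 with every 0.5% library above the 0% mean. galT, an enzyme of galactose use, was the 1 of 11 members of the arabinose and galactan list that passed, with an increase of 1.13 ± 0.35, and all 11 had positive log2 fold changes. lnpD_2, an epimerase of galactose-sugar metabolism, rose by 1.39 ± 0.30, with 7 of 10 libraries above the 0% mean. malQ_2, which rearranges maltodextrins, went from a median of 282 to 563 CPM with no overlap between the groups and rose by 0.84 ± 0.22. The ptsI and galT calls were each lost in 5 of the 20 fits that left out 1 library, and they and malQ_2 did not pass without the libraries numbered 76 to 81.

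Some protein-folding genes fell. The chaperone and protease list had 4 of 13 tested members lower and 0 higher, with a median of -0.65, and 12 of the 13 had negative log2 fold changes. Together the list took 4.38 to 11.7% of the F. rodentium counts at 0%, with a median of 6.31%, and 2.45 to 4.88% at 0.5%, with a median of 3.99%. dnaK, the Hsp70 chaperone, ranged from 17869 to 85435 CPM with a median of 29562 at 0%, and from 7836 to 29979 with a median of 17152 at 0.5%. The groups overlapped, all 10 libraries at 0.5% were below the 0% mean, and dnaK fell by 0.97 on the log2 scale (SE 0.30; edgeR, adjusted p = 0.0393). clpB, a chaperone that dissolves aggregates, fell by 0.79 and hrcA, the repressor of this regulon, by 0.91. groL, the barrel-shaped chaperonin, fell by 0.54.

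The chaperone count rested on the choice of libraries. It was 0 without the libraries numbered 76 to 81, where dnaK had an adjusted p of 0.109. It was also 0 on leaving out 0% replicate 2, 0% replicate 4 or 0.5% replicate 2, 1 without 0% replicate 6 or any 1 of 0.5% replicates 4 to 8, and 2 without 0% replicate 7. It was 8 without 0.5% replicate 3. The dnaK call was lost in 9 of the 20 fits that left out 1 library, the highest adjusted p being 0.128 without 0% replicate 2.

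The thiol and peroxide list also had calls in 1 direction. Of 8 tested members 4 were lower and 0 higher, and all 8 had negative log2 fold changes, with a median of -0.89. trxB, the reductase that recharges thioredoxin, ranged from 1001 to 1811 CPM with a median of 1259 at 0%. At 0.5% it ranged from 359.9 to 819 CPM with a median of 599.5. The highest 0.5% library was below the lowest 0% library, and trxB fell by 1.10 (SE 0.19; edgeR, adjusted p = 9.97e-05). tpx, a thiol peroxidase, went from a median of 588 to 313 CPM and fell by 0.98 (SE 0.21; edgeR, adjusted p = 0.00251). The thioredoxin copies trxA_3 and trxA_1 fell by 1.13 and 0.89. Only trxB and tpx passed without the libraries numbered 76 to 81, and the count was also 2 with library depth as a covariate and on leaving out 0% replicate 2 or 4 or any 1 of 0.5% replicates 2, 4, 5, 6 and 8.

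Some redox genes outside that list were also called, and dfx and hrb among them were chosen after their values were seen. norV_2, a flavorubredoxin that reduces nitric oxide, fell from a median of 420.1 to 174 CPM, by 1.20 (SE 0.23; edgeR, adjusted p = 0.000743). dfx, a superoxide reductase, fell by 1.04 and the rubredoxin gene hrb by 1.02. In the opposite direction spxA, a regulator that redirects RNA polymerase during thiol stress, rose from a median of 15869.7 to 34182 CPM. Its lowest 0.5% library, at 16216 CPM, lay within the 0% range of 11747 to 20283, and spxA rose by 1.13 ± 0.22 (SE; edgeR, adjusted p = 0.000743). The norV_2 and spxA calls held on leaving out each library in turn and without the libraries numbered 76 to 81, whereas dfx and hrb did not pass in the latter, nor dfx with the depth covariate (adjusted p = 0.0724).

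**Figure D2:**
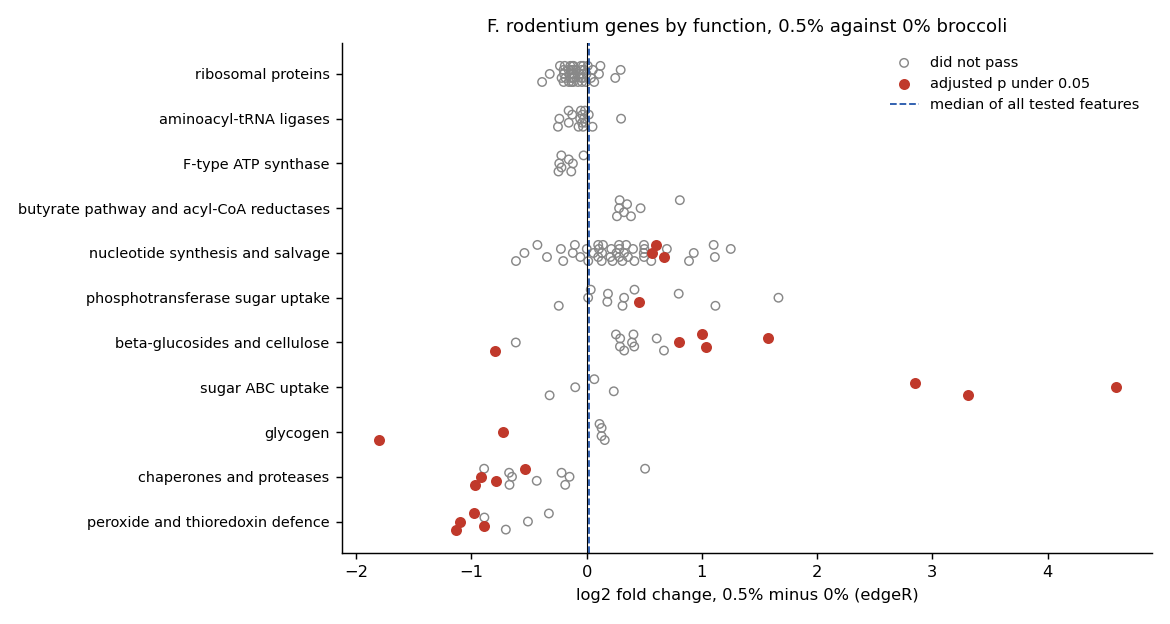
Each circle is a tested F. rodentium gene of the function on the vertical axis, placed at its log2 fold change at 0.5% against 0% broccoli. Red circles had an edgeR adjusted p under 0.05, and the dashed line is the median of all tested features. The 4 called chaperone genes and the 4 called thiol and peroxide genes lie to the left of it, and the 3 mgl genes lie farthest to the right of the genes shown.

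A gene of bile salt hydrolysis, by which gut bacteria free bile acids from their amino acid, was also lower. cbh_1, the hydrolase, ranged from 379.7 to 1044 CPM with a median of 728 at 0%, and from 123 to 467 with a median of 281 at 0.5%. The groups overlapped slightly, all 10 libraries at 0.5% were below the 0% mean, and cbh_1 fell by 1.32 (SE 0.25; edgeR, adjusted p = 0.000402). The call held on leaving out each library in turn and in every alternative run for it. The other tested bile acid gene did not pass.

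Storage sugar genes fell at the breakdown step. In the glycogen list 2 of 6 members were lower, both glycogen phosphorylases, and the 4 genes of synthesis did not pass. glgP_2 fell by 0.72, a call lost in 9 of the 20 fits that left out 1 library. glgP_1 fell by 1.80, but 1 library decided the size of this: 0% replicate 1 stood at 15809 CPM beside a 0% median of 1371, and without it glgP_1 did not pass (adjusted p = 0.114). Neither copy passed without the libraries numbered 76 to 81.

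Sulfur and metal genes were divided. cysK, which makes cysteine, fell by 0.80, and sir, a sulfite reductase, went from a median of 2982 to 1579.7 CPM and fell by 0.82. Among 5 tested genes of iron and zinc uptake, feoB_1, for ferrous iron, rose by 1.33 ± 0.39 and fhuD, for ferrichrome, fell by 0.74 (SE 0.21). hemE, a haem pathway enzyme placed in the vitamin B12 list, went from a median of 12.1 to 40.6 CPM and rose by 1.92 ± 0.45. cobB, whose symbol is shared by a cobalamin pathway enzyme and a protein deacetylase, fell by 0.88. None of these 6 passed without the libraries numbered 76 to 81, and of them only sir and hemE kept their call on leaving out each library in turn.

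The remaining named calls were of single genes. recD, a helicase subunit of DNA repair, had 0 counts in all 10 libraries at 0% and 447 at 0.5%, where it ranged from 7.42 to 93.7 CPM. It was at least 94.2-fold higher, with a floor of 3 counts summed over the 0% libraries. It entered the test only through its counts in the broccoli groups, so a difference was built into its being tested, and it was not tested in the fit on these 2 groups alone. ltaE, a threonine aldolase, had no overlap between the groups and rose by 0.80 ± 0.19. gerN, an ion antiporter first known from spore germination, went from a median of 669 to 320.0 CPM with no overlap and fell by 0.99. ydjF, a sugar-type repressor, fell by 1.42 and the glycolytic mutase gpmA_1 by 0.85. The multidrug exporters macB and mepA_1 rose by 1.33 and 1.47, as 2 of 10 tested members of their list, and mepA_1 lost its call in 5 of the fits that left out 1 library. pstB3, a phosphate importer ATPase, fell by 1.25, a call lost in 14 such fits. macB, mepA_1, pstB3 and gpmA_1 did not pass without the libraries numbered 76 to 81, while recD, ltaE, gerN and ydjF did.

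The nucleotide list held 3 weak calls out of 45 tested members. purF_1 and purF_3, copies for the first step of purine synthesis, rose by 0.67 and 0.56. pnp, placed in the list by a symbol also used for an RNA-degrading enzyme, rose by 0.60. aroB, of aromatic amino acid synthesis, rose by 0.71. None of these 4 passed without the libraries numbered 76 to 81. The nucleotide count was 0 on leaving out 0% replicate 6 or 7 or any 1 of 0.5% replicates 2, 6 and 8, and 1 without 0% replicate 2, 0.5% replicate 4 or 0.5% replicate 5. It was 5 or 6 without 0% replicate 1, 5 or 8.

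The machinery of growth showed no called gene. None of 45 tested ribosomal protein genes passed (median -0.11), nor any of 17 aminoacyl-tRNA ligases (median -0.04), 24 RNA polymerase and translation factor genes (median -0.15) or 8 ATP synthase genes (median -0.19). The same held for 6 fermentation genes, 8 genes of the butyrate and acyl-CoA reductase list (median 0.34), 41 cell wall genes (median 0.01) and 15 two-component genes. The glycolytic gene gap, on which F. rodentium had most counts, took 5.89% of its counts at 0% and 6.26% at 0.5% (log2 fold change 0.10 ± 0.14, SE).

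**Figure D3:**
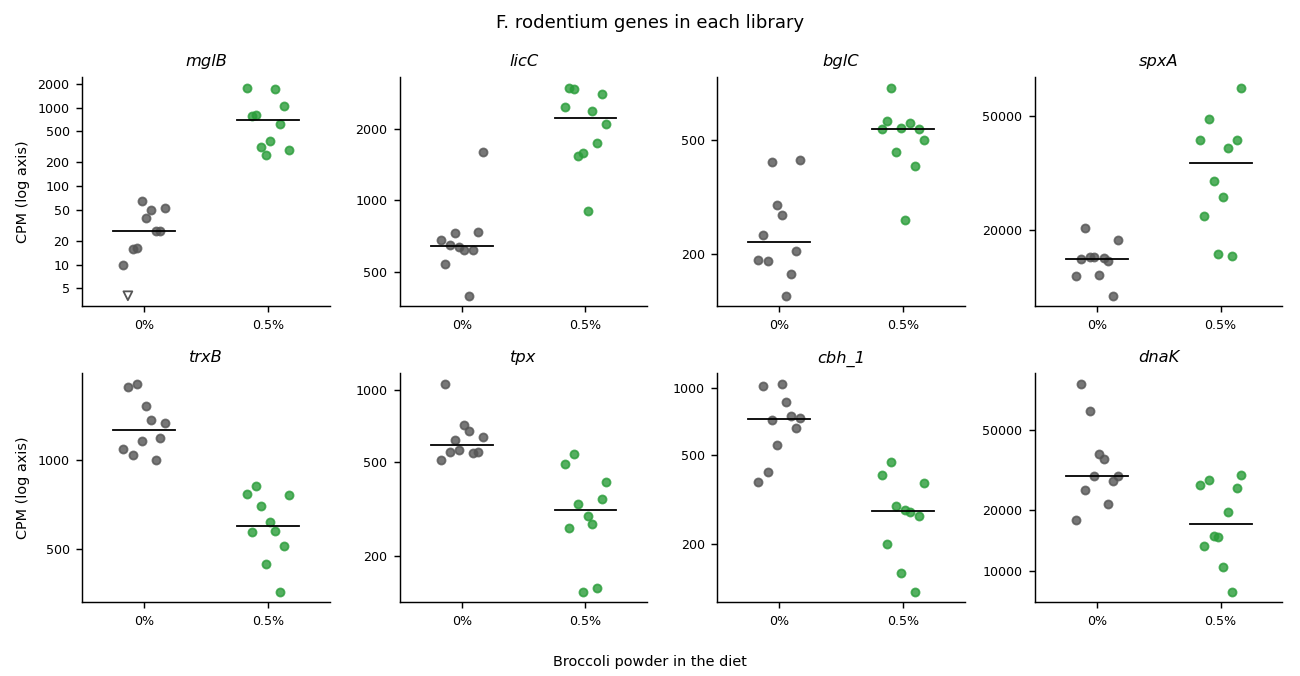
Levels of 8 F. rodentium genes in CPM on log axes, with 1 point per library, the median as a line, and an open triangle for a library with 0 counts. The 0.5% libraries of mglB all lie above 247 CPM and the 0% libraries below 65.4, while those of trxB lie below 819 CPM at 0.5% and above 1001 at 0%. dnaK overlaps between the groups.

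D. muris changed in fewer genes, and those with names were mostly lower. Of 1108 tested features 20 rose and 35 fell (4.96% of those tested, 1.81% higher and 3.16% lower), with a median log2 fold change of 0.06 over all tested. The lowered genes with a symbol included a polysaccharide receptor, a tetracycline resistance gene and sensor kinases, and most of the 35 have no symbol. Of the 20 that rose, 19 have no symbol. Groups without overlap numbered 2 (0.181%), both lower at 0.5% and without a symbol. With the libraries numbered 76 to 81 left out, 18 features passed, 14 of them lower.

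A gene of polysaccharide uptake was among those that fell. susC_3 encodes an outer membrane receptor of the family that imports starch and other glycans in gut Bacteroidota. It ranged from 2898 to 19233 CPM with a median of 14191 at 0%, and from 1558 to 5583 with a median of 4006 at 0.5%. Only 1 of the 0% libraries, replicate 10, was inside the 0.5% range, and susC_3 fell by 1.78 (SE 0.33; edgeR, adjusted p = 0.0005). It was the 1 of 5 tested SusC and SusD genes that passed. glcA fell by 1.66, but only 8 of 9 libraries at 0.5% were below the 0% mean and the call was lost in 4 of the 18 fits that left out 1 library and without the libraries numbered 76 to 81.

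Mobile and resistance genes were lower. tet(Q), which protects the ribosome from tetracycline and travels on conjugative elements, ranged from 2556 to 15081 CPM with a median of 7942 at 0%. At 0.5% it ranged from 1052 to 4389 CPM with a median of 2021, so the groups overlapped at the low end of the 0% range. It fell by 1.93 (SE 0.35; edgeR, adjusted p = 0.0005). ltrA_1, the maturase of a group II intron, fell by 2.20 from a median of 1654 to 535 CPM, but did not pass without the libraries numbered 76 to 81 (adjusted p = 0.11). These are both tested members of their list. per1, named for a beta-lactamase, fell by 1.27 and xerC_6, a site-specific recombinase, by 1.40. xerC_6 was the 1 called of 34 tested genes of DNA recombination and repair. It lost its call in 12 of the 18 fits that left out 1 library. Neither per1 nor xerC_6 passed without the libraries numbered 76 to 81.

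Sensors and regulators made up most of the remaining named calls. Of 17 tested two-component genes 4 were lower and 0 higher, with a median of -0.28, beside 3.16% of all tested features lower. rcsC_2, a sensor kinase, went from a median of 6719 to 2833 CPM and fell by 1.26 (SE 0.30; edgeR, adjusted p = 0.005). A second copy, rcsC_5, fell by 1.60, the kinase sasA_6 by 1.48 and the response regulator atoC_2 by 2.19. The count of 4 was the same on leaving out each library in turn and 2 without the libraries numbered 76 to 81, where sasA_6 and atoC_2 passed. With library depth as a covariate it was 1, sasA_6, and rcsC_2 had an adjusted p of 0.145, rcsC_5 of 0.0732 and atoC_2 of 0.0662. Of the other named genes of D. muris, susC_3, tet(Q), ltrA_1 and cpdA_2 passed with the covariate, and glcA, per1, xerC_6, rhaS_3, mgsA and rsmH did not. rhaS_3, an AraC-type activator, fell by 2.30, from a median of 326 to 42.4 CPM. cpdA_2, named for a cyclic AMP phosphodiesterase, fell by 2.30 and mgsA, methylglyoxal synthase, by 1.67. These 3 did not pass without the libraries numbered 76 to 81.

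The 1 named gene that rose in D. muris was rsmH, a methyltransferase of ribosomal RNA. It had a median of 79.8 CPM at 0%, with 0 counts in 2 of 9 libraries, and 313 at 0.5%, and it rose by 1.53 ± 0.41 (SE; edgeR, adjusted p = 0.0174), a call lost without the libraries numbered 76 to 81 (adjusted p = 0.11). Housekeeping genes of D. muris showed no call among 40 ribosomal proteins (median -0.03), 20 aminoacyl-tRNA ligases, 10 chaperones and proteases or 9 genes of the propionate pathway. The chaperone median in D. muris was 0.11, where that in F. rodentium was -0.65, and this difference between the bacteria was not tested.

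**Figure D4:**
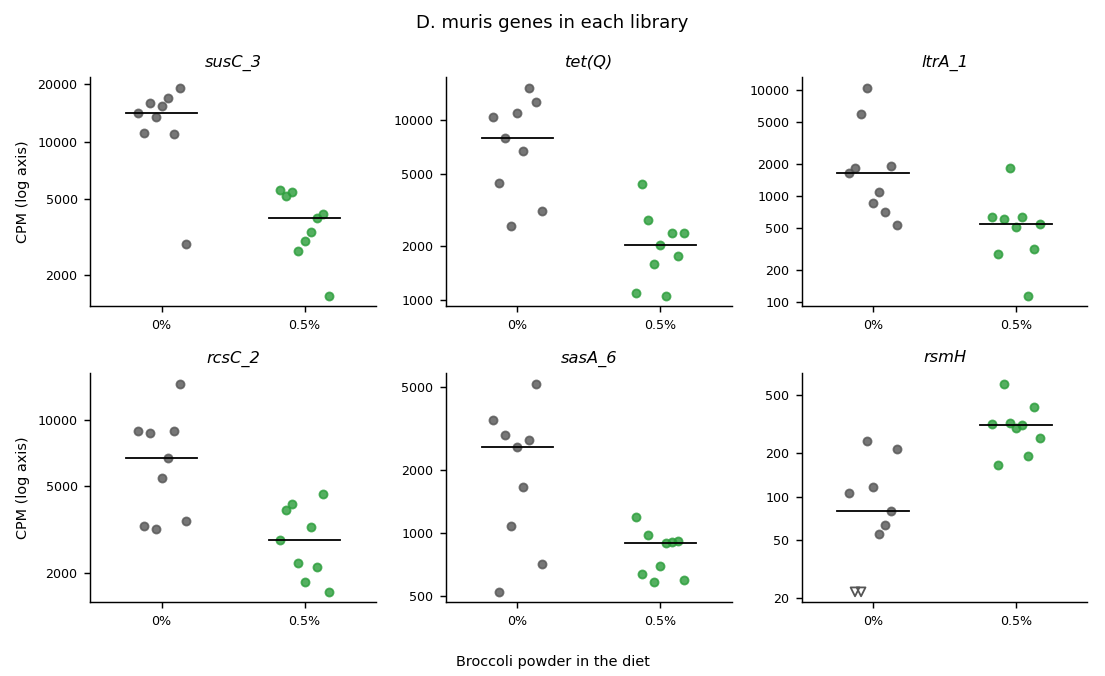
Levels of 6 D. muris genes in CPM on log axes in the 9 libraries of each group, with the median as a line and open triangles for libraries with 0 counts. susC_3 lies at 1558 to 5583 CPM at 0.5% and, apart from 1 library, above that range at 0%. rsmH is higher at 0.5%.

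In Acetatifactor more genes were higher than lower, and many of them were unseen in most 0% libraries. Of 773 tested features 167 rose and 27 fell (25.1% of those tested, 21.6% higher and 3.49% lower), and the median over all tested was 0.95, so lists are read against that. The split depended on scaling: with DESeq2's size factors, which move the median to 1.82, 362 rose and 8 fell. No feature had groups that did not overlap. When the libraries numbered 76 to 81 were left out, 87 features passed, all higher, and leaving out 0% replicate 4, 0% replicate 6 or 0.5% replicate 8 gave 129, 128 and 128. A fit on these 2 groups alone tested 237 features and called 0. Of the Acetatifactor genes named below, it tested cpdA_3, yxdM, rcsC_8, sasA_28 and pflB_1. The others passed the low-count filter only with the higher doses in the fit, so a difference could be built into their being tested. The Acetatifactor counts per library were low, with medians of 35240 at 0% and 24770 at 0.5%.

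The tested genes of the butyrate and acyl-CoA reductase list were all called higher in Acetatifactor. Butyrate is the fatty acid that colon cells burn, and it is made from acetyl-CoA by thiolase, a dehydrogenase and butyryl-CoA dehydrogenase. All 4 tested members rose, with a median of 2.30, where 21.6% of all tested features were called higher. None of the 4 was tested in the fit on these 2 groups alone. thlA, the thiolase, had a median of 0 CPM at 0%, with counts in 3 of 10 libraries, and 322 at 0.5%, with counts in 9. It rose by 2.42 ± 0.74 (SE; edgeR, adjusted p = 0.0161). hbd, the 3-hydroxybutyryl-CoA dehydrogenase, rose by 2.18 ± 0.70 and bcd, butyryl-CoA dehydrogenase, by 2.07 ± 0.72. carE, an electron-transfer subunit of an acyl-CoA reductase, rose by 3.23 ± 0.84. The count was 2 of 5 tested members without the libraries numbered 76 to 81 and 2 without 0.5% replicate 2.

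Carbohydrate genes of Acetatifactor gave part of the calls. lacZ, a beta-galactosidase, had 3 counts at 0% and 107 at 0.5%, a ratio of 23.0 with a counting interval from 7.67 to 113. rhaR_8, a regulator of rhamnose use, had 1 count against 75. These were 2 of 3 members called higher among 10 tested for arabinose and related sugars. In all, 21.6% of the tested Acetatifactor features were called higher, and no list was tested against that share. In sugar ABC uptake 2 of 7 members rose, agpA and lacF_1, binding and permease components, by 2.39 ± 0.80 and 2.11 ± 0.74. Both tested genes of the phosphotransferase list rose, by 2.17 for gutB and 2.09 for malX, symbols also used for a sorbitol dehydrogenase and a maltodextrin-binding protein. The sugar ABC count was 0 without the libraries numbered 76 to 81 and on leaving out 0% replicate 6, 0.5% replicate 2 or 0.5% replicate 8. It was 1 without 0% replicates 2, 4, 5 or 7 and 4 without 0% replicate 1. The phosphotransferase count was 0 without the numbered libraries and 1 on leaving out any of 10 libraries.

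Glycogen, fermentation and sporulation added further calls, to be read against the 21.6% of all tested features called higher. In the glycogen list 4 of 8 members rose, among them glgB_1, the branching enzyme, with 3 counts against 78 (ratio 16.8, interval 5.54 to 83.2), and glgC_3, for ADP-glucose, by 2.17 ± 0.78. In the fermentation list 3 of 9 rose. pflB_1, pyruvate formate lyase, went from a median of 299 to 1529 CPM and rose by 1.97 ± 0.68, pta_2 by 2.10 ± 0.77, and ldhA, lactate dehydrogenase, had 3 counts against 48. In sporulation 3 of 6 rose, spoVG_3 by 3.57 ± 0.76, the master regulator spo0A by 2.43 ± 0.88 and spoVD_2 by 3.13 ± 0.90. Without the libraries numbered 76 to 81 these counts were 1, 0 and 2. The glycogen count ranged from 1 to 7 and the fermentation count from 1 to 5 on leaving out 1 library at a time.

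Single Acetatifactor genes with large rises were relA, which makes the stringent-response signal, by 3.36 ± 0.76, dppB_1, a dipeptide permease, by 3.81 ± 0.89, and btuD_20, an ABC transporter ATPase, by 3.75 ± 0.88. relA had counts in 3 of 10 libraries at 0% and in 9 of 10 at 0.5%. rnj_1, ribonuclease J, rose by 2.85 ± 0.76. sdhA, named for succinate oxidation, had 2 counts against 90, metG, a tRNA ligase, 2 against 71 and atpG, of ATP synthase, 3 against 79. uvrA_1, of DNA repair, had 0 counts against 45 and was at least 9.69-fold higher. It was among 7 tested features with 0 counts in all 0% libraries, all 7 called higher. These passed the low-count filter only through the broccoli groups, so a difference was built into their being tested. cheV, of chemotaxis, rose by 2.63 ± 0.78 and the ribosomal protein gene rpsC by 2.59 ± 0.84, each the 1 called member of its list. These lists had 10 and 12 tested members, and 21.6% of all tested features were called higher. The rpsC call was lost without 0.5% replicate 4 and the cheV call without the libraries numbered 76 to 81.

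Some Acetatifactor genes fell, sensor kinases and response regulators among them. The two-component list had 8 higher and 3 lower of 24 tested, with a median of -0.32, beside 21.6% higher and 3.49% lower of all tested features. graR_4, a response regulator, went from a median of 863 to 77.9 CPM and fell by 2.31 (SE 0.70). The sensor kinases rcsC_8 and sasA_28 fell by 1.78 and 1.65, yxdM, an ABC permease, by 2.19 and cpdA_3 by 2.34. ftsH_3, a membrane protease, fell by 2.26. graR_4 was detected in all 10 libraries at 0% and in 8 of 10 at 0.5%. None of these 6 passed without the libraries numbered 76 to 81. sasA_28 lost its call in 8 of the 20 fits that left out 1 library and ftsH_3 in 17, and the two-component count of 11 was 7 without 0% replicate 7, 0.5% replicate 1 or 0.5% replicate 8.

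L.bacterium335 differed most at this dose. At 0% its counts lay mostly on 5 unnamed features, and at 0.5% genes of many functions were seen. Of 1384 tested features 1099 rose and 10 fell (80.1% of those tested, 79.4% higher and 0.723% lower), and 363 (26.2%) were higher in every 0.5% library than in any 0% library. Of the tested features 903 had 0 counts in all 10 libraries at 0%, although the genome had 744308 counts there in all, and 902 of these were called higher. These 903 passed the low-count filter only through the broccoli groups, so that a difference was built into their being tested, and the counts of lists below are read against the 79.4%. The share of the genome among the counts did not pass a test, with 14.26% ± 11.48 (SD, n = 10) at 0% and 11.23% ± 7.52 at 0.5%. The 10 features that fell have no symbol. With DESeq2's size factors the median log2 fold change over all tested moved from 7.60 to 6.36, and a fit on these 2 groups alone tested 269 features, of which 95 rose and 20 fell.

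Motility genes of L.bacterium335 came into view at 0.5%. All 32 tested members of the flagella and chemotaxis list rose, 25 of them from 0 counts, and 14 had no overlap between the groups. Of all 1384 tested features 79.4% were called higher, 903 had 0 counts at 0% and 26.2% lay above without overlap. The 25 members passed the low-count filter only through the broccoli groups, so a difference was built into their being tested. The list took 0 to 0.0373% of the genome's counts at 0% and 0.338 to 2.48% at 0.5%, with a median of 1.1%. fliD, the cap of the flagellar filament, had counts in 2 of 10 libraries at 0% and ranged from 1084 to 12432 CPM with a median of 5260.5 at 0.5%. fliS, the chaperone of flagellin, had 1 count at 0% and 1404 at 0.5%.

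Genes for uptake and breakdown of plant sugars were also called higher. All 16 tested genes of sugar ABC uptake rose, and the list went from 0.0103 to 0.0848% of the counts at 0% to 1.73 to 3.43% at 0.5%. mglB_1, a galactose-binding protein, had a median of 12.9 CPM at 0%, with a highest value of 186, and ranged from 16287 to 38173 CPM with a median of 27969 at 0.5%. It rose by 9.39 ± 0.83 (SE; edgeR, adjusted p = 2.94e-16). The permease genes lacF_1 and araQ_1 had 0 counts at 0% and were at least 227-fold and 396-fold higher. All 12 tested genes of pectin and uronate breakdown rose, 10 of them without overlap. Over all tested features 79.4% were called higher and 26.2% lay above without overlap. Genes with 0 counts at 0% entered the test only through the broccoli groups. uxaC, glucuronate isomerase, had 0 counts at 0% and was at least 216-fold higher, and kduD_1, a later step of pectin breakdown, had 2 counts against 803. cbgA, a beta-galactosidase, had 1 count against 1000.

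Storage and energy genes of L.bacterium335 were among those with no counts at 0%. All 11 tested glycogen genes rose, where 79.4% of all tested features were called higher. glgC_1 had 0 counts at 0% and 1734 at 0.5% (at least 572-fold higher), glgD 0 and 1553 (at least 512-fold) and glgA 0 and 989 (at least 326-fold). pflB_1, pyruvate formate lyase, went from a median of 53.7 to 7491 CPM and rose by 6.27 ± 0.71, while its copy pflB_2 had 0 counts at 0%. These were 2 of the 11 tested fermentation genes, all called higher. All 6 tested ATP synthase genes rose, with 0 counts at 0% for atpG and atpH. All 6 tested genes of the butyrate and acyl-CoA reductase list rose, among them carD, an electron-transfer subunit, and buk2, a butyrate kinase. The decarboxylase subunits oadA and gcdB, 2 of the 3 tested members of the propionate list, also rose.

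Growth genes were called higher as well. Of 33 tested ribosomal protein genes 30 rose, beside 79.4% of all tested features. Their median log2 fold change of 6.12 was below the 7.60 over all tested features. The genes rplE and rplQ had 0 counts at 0% against 232 and 267 at 0.5%. All 15 tested aminoacyl-tRNA ligases rose, among them leuS, with 1 count against 423. All 18 tested chaperones and proteases rose, among them dnaK, with 1 count against 1305, and hrcA, with 1 against 614. All 26 tested cell wall genes rose, among them mraZ, a regulator of division genes, with 1 count against 1511. The list of branched-chain amino acid synthesis had 11 of 11 tested members higher, including ilvB_3 and ilvE. The nucleotide list had 34 of 34 tested members higher, including deoB. The peptide uptake gene dppE, the sporulation gene spoVG, the recombinase gene xerD_1, napA, and the peroxide genes rbr3B and perR all had 0 counts at 0%. agrB, of a quorum-sensing system, had 1 count against 4603.

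The share of counts on some lists of L.bacterium335 overlapped between the groups. The two-component genes, of which 25 of 43 were called higher, took 0.543 to 1.28% of the counts at 0% and 0.621 to 1.09% at 0.5%. DNA recombination and repair genes, with 33 of 39 higher, took 1.15 to 3.11% at 0% and 1.09 to 2.15% at 0.5%. The called shares of these lists are 58.1% and 84.6%, beside 79.4% of all features, and the shares of counts include all members of a list, tested or not. Ribosomal proteins took 0.00999 to 0.337% at 0% and 0.193 to 2.22% at 0.5%. The ranges also overlapped or met for RNA polymerase and translation factors, other amino acid synthesis, vitamin B12, antimicrobial export, iron and zinc uptake, and tryptophan and indole. For all the other lists with members in this genome the ranges did not touch. These included flagella, sugar ABC uptake, pectin and glycogen, and also aminoacyl-tRNA ligases, ATP synthase, chaperones, cell wall, nucleotide and fermentation genes.

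**Figure D5:**
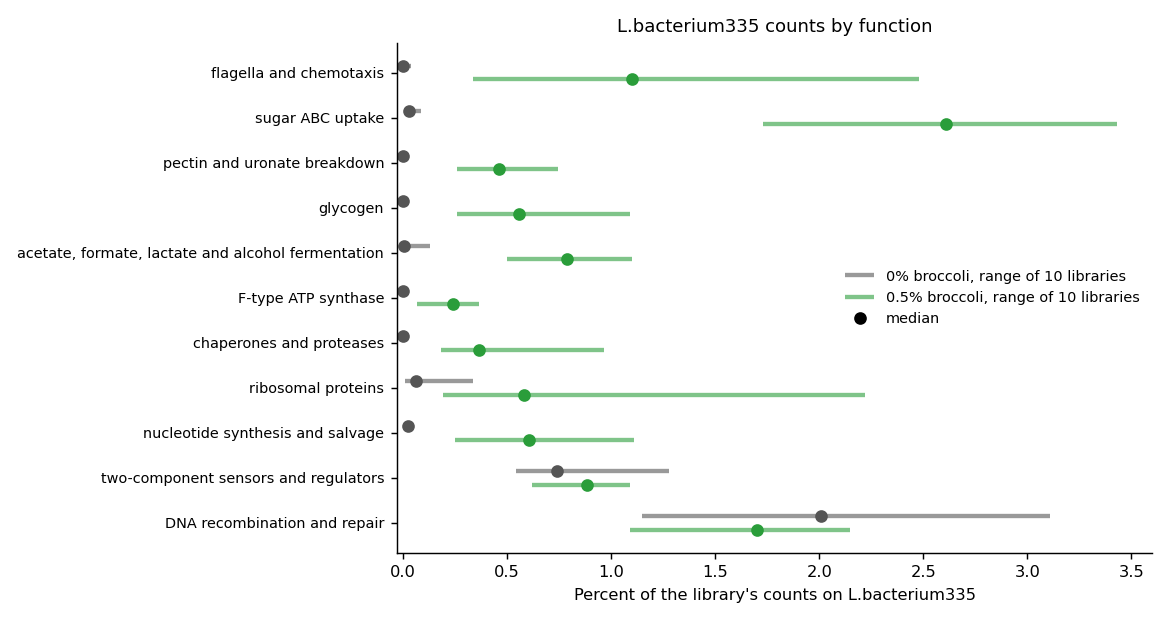
Percent of the L.bacterium335 counts in each library that fell on the genes of each list, given as the range (bar) and the median (point) over 10 libraries at 0% and at 0.5% broccoli. The bars of 0.5% overlap those of 0% for ribosomal proteins, for two-component genes and for DNA recombination and repair. They begin to the right of those of 0% for all the other lists shown.

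X. muris showed no called gene. Of 670 tested features 0 passed (0% of those tested), with 7 libraries in each group, with 1 (0.149%) that was higher in every 0.5% library than in any 0% library, while 89 had an unadjusted p under 0.05 in edgeR and DESeq2 also called 0. The smallest adjusted p was 0.0658, for rnr, ribonuclease R, with a median of 113 CPM at 0% and 545 at 0.5% and 6 of 7 libraries above the 0% mean. ribH, of riboflavin synthesis, followed with 3 counts at 0% and 57 at 0.5% (ratio 8.24, interval 2.68 to 41.1; edgeR, adjusted p = 0.0815). Leaving out 0% replicate 7 gave 12 calls, 0.5% replicate 5 gave 7, 0.5% replicate 4 gave 3, and 0.5% replicate 3 and 0% replicate 8 gave 1 each. One feature took 84.7% of the X. muris counts at 0% and 77.7% at 0.5%, which leaves few counts for the rest.

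Alistipes was too thinly covered for tests of its genes. It had 51 to 336 counts per library at 0% and 61 to 1508 at 0.5%, on 16 to 85 and 29 to 460 features. With no minimum of counts 7 features could be tested and 1 passed.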

How the data were processed

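The authors deposited raw counts per feature, 1 table for each of 6 bacterial genomes, and every column of the compared libraries matched 1 library by name. Per the labels' protocols, RNA of the cecal contents was depleted of 5S, 16S and 23S ribosomal RNA (QIAseq FastSelect) and made into libraries with the KAPA RNA HyperPrep kit. The aligner, the counting program, the genome builds and the treatment of reads shared by genomes or gene copies are not named in the labels or files (not given in the sources used here). Separate values for copies with a numeric suffix, such as rcsC_2, are therefore uncertain. Gene symbols covered 47.4% of F. rodentium features, 31.9% in L.bacterium335, 38.7% in D. muris, 18.4% in X. muris and 38.1% in Acetatifactor. The rest entered the tests but are not named.

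Every genome had its own fit in edgeR 4.0.16 (R 4.3.3) on libraries with at least 10000 counts in it, with filterByExpr, TMM factors, the quasi-likelihood test (two-sided) and Benjamini-Hochberg adjustment within the genome at 0.05. All 4 dose groups shared 1 estimate of the spread. In X. muris 5 stable RNA features were left out. The standard error is the log2 fold change divided by the square root of F. Where the 0% group had 0 counts, a lower bound with a floor of 3 counts over the group is given, and with 1 to 3 counts a ratio with its exact 95% counting interval. Such intervals and bounds cover counting error only. Shares and breadth were compared by two-sided permutation tests (100000 resamples, exact with under 10 libraries) and Hodges-Lehmann differences with exact rank-sum intervals. All 90 pairs of libraries within groups differed (smallest chi-square per degree of freedom 11.5). The scripts were tested on simulated data.

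The comparison, the gene lists and the naming rule were chosen with earlier results of these data known. Lists were matched to symbols by pattern. Among called genes with a symbol and at least the median level, the rule took the 6 largest changes and 3 smallest p each way, and up to 2 called members of each list by smallest p. It gave 150 genes, of which the text names 108. A further 23 lie outside it and were chosen after their values were seen: hbd, bcd, spo0A and pta_2 of Acetatifactor, atoC_2, cpdA_2, per1 and rsmH of D. muris, rnr and ribH of X. muris, and dnaK, hrcA, trxA_1, dfx, hrb, sir, mglA, bglH_1, cbpA, malQ_2, ltaE, pnp and gap of F. rodentium. Alternatives were other scaling, DESeq2 1.42.0, other filters and minimums, a depth covariate, a fit on these groups alone, and leaving out libraries. Values of the gene lists under these alternatives were added after the data had been seen.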

Additional observations from a re-analysis of the deposited data

Results flagged for a closer look

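In groups of 4 to 10 libraries, 22 of 183 sets of values (12.02%) had a highest or lowest library far from the rest by Dixon's test, where chance flags about 1 in 20. A set with a library at 0 counts was not tested (111 sets). Of shares of the 6-genome counts, 3 had a high library. Alistipes reached 0.261% in 0.5% replicate 2 (next 0.125%), D. muris 11.7% in 0% replicate 4 (next 4.99%) and X. muris 10.7% in 0.5% replicate 2 (next 5.59%).

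The other flags were of genes, on the log2 CPM scale. In F. rodentium at 0%, tpx reached 10.06 in replicate 2 (next 9.481), glgP_1 13.95 in replicate 1 (next 10.86), norV_2 9.735 in replicate 4 (next 8.826), cysK 9.244 in replicate 4 (next 8.345) and licC 10.64 in replicate 10 (next 9.525). Low libraries at 0% were hrb at 9.956 in replicate 1 (next 10.55), ltaE at 6.842 in replicate 4 (next 7.989) and mepA_1 at 0.8891 in replicate 6 (next 3.396). At 0.5% the low libraries were gpmA_1 at 6.677 in replicate 8 (next 7.451), mglC at 4.306 and recD at 2.891 in replicate 5 (next 6.405 and 4.896) and pstB3 at 5.1 in replicate 9 (next 6.913).

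In D. muris, 0% replicate 10 was low for susC_3 at 11.5 (next 13.43) and for glcA at 7.728 (next 10.25). rhaS_3 was low at 4.91 in 0% replicate 4 (next 7.728), and rcsC_5 was high at 9.728 in 0.5% replicate 6 (next 8.567). In L.bacterium335 at 0.5%, glgD was low at 8.497 and deoB at 6.037 in replicate 7 (next 10.04 and 8.369), and kduD_1 at 6.825 in replicate 10 (next 8.795).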

How the results depend on the processing

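No paired analysis was possible because the labels give no replicate numbers, and those used here are only names. Of 173 genes given by the naming rule or named in the text, 0 reversed direction under the alternatives that tested them. These tested 84 with 2 groups alone, 107 with a minimum of 50000 counts, 62 with counts on 50% of features, and all 173 in the others, except the stable RNA alternative for X. muris (2). Calls were lost for 66 without the libraries numbered 76 to 81, for 21 with a depth covariate and for 14 with no minimum of counts. The counts of called features moved by over 1.5 times as follows, and the cause was not tested where fewer libraries or other tested features do not show it. With DESeq2 they were 1033 in Acetatifactor, 246 in F. rodentium and 2086 in L.bacterium335. With no low-count filter they were 811 in Acetatifactor and 2374 in L.bacterium335. DESeq2's size factors in edgeR gave 370 in Acetatifactor and moved the median of X. muris from 0.36 to 0.00. With these 2 groups alone in the fit the counts were 0 in Acetatifactor, 247 in F. rodentium and 115 in L.bacterium335. Without the libraries numbered 76 to 81 they were 87 in Acetatifactor, 18 in D. muris and 40 in F. rodentium. D. muris had 36 with no minimum and 21 with the covariate. Leaving out each library in turn gave 90 to 161 calls in F. rodentium, 1133 to 1170 in L.bacterium335, 128 to 288 in Acetatifactor, 44 to 64 in D. muris and 0 to 12 in X. muris. The called chaperones of F. rodentium, 4 as reported, were 8 with DESeq2, with these 2 groups alone or with a minimum of 50000 counts, and 1 with no minimum.

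The difference in share of X. muris, 0.4705 percentage points, became -0.26 as a centred log-ratio (adjusted p = 0.698) and -0.37 without 0.5% replicate 2. That of F. rodentium became -2.74 without the 5 most counted features of each genome (adjusted p = 0.605) and -0.544 without 0% replicate 2, and that of L.bacterium335 became 1.76 without these features (adjusted p = 0.605). Neither sign passed a test. Leaving out each library in turn, the shares of F. rodentium and X. muris ranged from -0.544 to 5.50 and from -0.37 to 0.824. The gain in Acetatifactor features was 354 without the libraries numbered 76 to 79 and 339 to 491 on leaving out each library, and the gain on the 5 top features of F. rodentium 1.76 and 1.78 to 2.58. A minimum of 50000 counts could not be run for Acetatifactor, D. muris and X. muris, nor one of counts on 50% of features for Acetatifactor and L.bacterium335. Median counts per library were 35240 at 0% and 24770 at 0.5% in Acetatifactor, and 16000 and 23940 in X. muris. Whether these totals limited what could be called there was not tested.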
